A study of Mus musculus with 12 samples.

Results

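The phase II conjugating enzymes join drugs, hormones and metabolites to a polar group, and the genes of 3 of their families were followed here in mouse liver cells and liver organoids. The 3 families are the UDP-glucuronosyltransferases with related UDP-glycosyltransferases (UGT), the sulfotransferases (SULT) and the cytosolic and kappa glutathione S-transferases (GST). The members are all their genes, by annotated symbol, that had an array row naming no other gene. This gave 46 of 19937 genes, namely 11 UGT, 16 SULT and 19 GST genes. A further 17 symbols of these families, among them those of the UGT1A locus, stood only in 10 rows that name several genes and were not used in any comparison.

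The study hybridised total RNA from liver cells of C57Bl6 strain background to 12 Affymetrix MoGene 1.0 ST arrays, and by its title it examined liver progenitor cells produced by expression of Yap, the transcriptional co-activator held in check by the Hippo pathway. There were 4 groups of 3 arrays. Hepatocyte libraries came from YFP+ liver cells sorted by flow cytometry and labelled as uninduced, and wild-type organoids, which are cell clusters grown from liver in three-dimensional culture, came from cells labelled wild-type. Yap-off organoids (labelled Minus Dox) were made after 3 weeks of Yap expression in the animal and then had Yap switched off during their 2 weeks of culture. Yap-on organoids (labelled Plus Dox, for doxycycline) had the same 3 weeks and kept Yap on during culture. Wild-type organoids were cultured for 2 weeks too. The promoter that drives the Yap transgene, its alleles, the animals behind each library and their sex and age are not given in the sources used here. The labels do not say that replicates came from separate animals or cultures, so each p-value reflects the spread among the libraries, some or all of which may be technical.

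UGT enzymes sit in the endoplasmic reticulum, and most of them transfer glucuronic acid from UDP-glucuronic acid. SULT enzymes of the cytosol transfer a sulfonate group from PAPS, and GST enzymes add glutathione to electrophiles. The products are more soluble and leave the cell through export pumps into bile or blood. Hepatocytes are the main site of these reactions in the body, and the genes of the Sult2a and Sult3a groups are known for sex-dependent levels in mouse liver.

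Some libraries did not resemble others of their label. Across genes, the library labelled hepatocyte 2 correlated at r = 0.82 and 0.83 with the other hepatocyte libraries and at 0.94 and 0.95 with wild-type organoids 1 and 3, and wild-type organoid 2 correlated at 0.82 and 0.80 with the other wild-type organoids and at 0.95 and 0.96 with hepatocytes 1 and 3 (within Yap-off organoids r was 0.98, within Yap-on organoids 0.99 to 1.00). Hepatocyte 2 and wild-type organoids 1 and 3 had log2 levels of 11.56 to 12.16 for Lyz2, a macrophage marker, whereas the other 9 arrays had at most 6.30. Hepatocytes 1 and 3 and wild-type organoid 2 had levels of 9.28 to 10.21 for Krt19, a biliary marker, and hepatocyte 2 and the other wild-type organoids had at most 4.95. Albumin (Alb) was between 11.53 and 12.54 on all arrays but the Yap-on arrays, where it was between 3.29 and 3.68. Cyp2e1, a hepatocyte marker, was at 10.14 in hepatocyte 2 and at 10.03 and 9.90 in wild-type organoids 1 and 3. It was at 3.16 and 3.22 in hepatocytes 1 and 3 and at 2.74 in wild-type organoid 2. Each never-induced group thus held a library unlike the others of its label. The data do not tell which labels are wrong, and these need not be the labels of the odd library in each group. The tests against these groups are given with and without hepatocyte 2 and wild-type organoid 2. The text calls each library by its label. Whether the Yap1 row also reads the transgene is not known here, since its alleles are not given. The row did not separate the induced groups by much, with 7.35, 7.21 and 6.88 in Yap-off and 7.45, 7.40 and 7.28 in Yap-on organoids.

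Levels are log2 of the deposited intensity. The array medians over all genes lay between 4.14 and 4.34, which serves as a rough mark, since no detection calls were used. By this mark 17 members lay above the median on all 12 arrays, 15 on some arrays and 14 on none, with levels of 2.04 to 3.97 for the last group. These 14 were Gsto2 and Gstt4, 9 SULT genes (Sult1b1, Sult1c1, Sult2a3, Sult2a6, Sult3a1, Sult3a2, Sult5a1, Sult6b1 and Sult6b2) and the UGT genes Ugt2b37, Ugt3a1 and Ugt8a. Of the families, 15 of 19 GST genes but only 1 SULT gene (Sult1a1) and 1 UGT gene (Ugt2b34) lay above the median on every array.

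Promoter windows are shown for 4 members. Sult1e1 and Sult1d1 were high in Yap-off organoids and Sult1c2 was high in Yap-on organoids. Gsta3 is a GST gene above the median on every array whose window holds the letters of an antioxidant response element core. Its difference between the Yap states was small (0.35, Yap-on minus Yap-off on the log2 scale). Each window runs 5′ to 3′ on the gene's strand from 250 bases before to 50 bases after the start site, from RefSeq on GRCm38.p6. Capitals mark matches to TGACNNNGC (core of the antioxidant response element bound by NRF2), GCGTG (core of the xenobiotic response element bound by AHR) and GTTAAT (core of an HNF1 site), each searched on both strands. The Sult1e1 window lies at chr5:87591562-87591861 and that of Sult1d1 at chr5:87568957-87569256, both on the minus strand. Sult1c2 is at chr17:53845909-53846208 on the minus strand and Gsta3 at chr1:21240335-21240634 on the plus strand.
Sult1e1: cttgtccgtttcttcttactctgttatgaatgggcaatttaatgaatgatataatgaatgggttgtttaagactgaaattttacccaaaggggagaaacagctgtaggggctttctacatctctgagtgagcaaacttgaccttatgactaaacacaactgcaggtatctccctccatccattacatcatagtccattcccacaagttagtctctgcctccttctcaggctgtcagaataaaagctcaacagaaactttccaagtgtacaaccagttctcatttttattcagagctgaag
Sult1d1: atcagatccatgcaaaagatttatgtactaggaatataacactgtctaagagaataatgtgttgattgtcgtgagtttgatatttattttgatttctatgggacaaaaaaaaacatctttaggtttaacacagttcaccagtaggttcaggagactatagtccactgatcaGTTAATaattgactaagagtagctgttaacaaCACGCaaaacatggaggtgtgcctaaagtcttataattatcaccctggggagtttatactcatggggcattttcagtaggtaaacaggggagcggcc
Sult1c2: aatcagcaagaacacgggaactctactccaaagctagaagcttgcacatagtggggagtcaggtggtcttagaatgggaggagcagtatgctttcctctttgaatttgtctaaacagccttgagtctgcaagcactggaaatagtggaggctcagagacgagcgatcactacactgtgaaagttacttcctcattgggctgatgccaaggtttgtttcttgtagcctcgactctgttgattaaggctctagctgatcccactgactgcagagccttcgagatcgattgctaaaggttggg
Gsta3: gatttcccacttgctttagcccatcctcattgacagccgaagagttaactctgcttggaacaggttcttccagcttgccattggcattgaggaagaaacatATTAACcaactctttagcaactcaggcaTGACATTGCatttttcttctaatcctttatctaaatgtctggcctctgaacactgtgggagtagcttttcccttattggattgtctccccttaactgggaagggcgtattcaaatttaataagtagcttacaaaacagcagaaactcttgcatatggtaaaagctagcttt
No match stood in the Sult1e1 and Sult1c2 windows, the Sult1d1 window held GTTAAT and GCGTG (as CACGC), and the Gsta3 window held TGACNNNGC and GTTAAT (as ATTAAC).

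RefSeq windows were found for 42 of the 46 members, with 53 windows in all because some genes have several starts; Gsta4, Gstt2, Sult4a1 and Ugt3a2 had none. TGACNNNGC stood in 3 of the 53 windows (5.66%), all of GST genes, against 12.4% of all 32851 windows. GCGTG stood in 10 (18.9%) against 32.4%. GTTAAT stood in 8 (15.1%) against 7.10%, with 5 of 18 SULT windows (27.8%), 2 of 10 UGT windows (20.0%) and 1 of 25 GST windows. In the Gstm5 window the matches to TGACNNNGC and GCGTG overlap. A match is a description of letters, not of binding, and no match says only that these letters are not in the window.

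Yap-on organoids were compared with Yap-off organoids to ask which members differed when Yap was kept on in culture rather than switched off. Of the 46 members, 29 differed (limma adjusted p under 0.05; 63.0%), against 31.2% of all genes. In Yap-on organoids 9 members were higher (19.1% of all genes were) and 20 were lower (12% of all genes were). At a change of at least 2-fold, 4 members were higher and 12 lower (8.09% and 4.57% of all genes). The median difference, Yap-on minus Yap-off on the log2 scale, was −0.39 over the members and −0.08 over all genes; with renewed quantile normalization it was −0.24 over the members and 0.001 over all genes. The count rests on the spread within these 6 arrays: with a spread shared over all 12 arrays, 10 members passed, 2 higher and 8 lower, against 11.5% of all genes (7.09% higher and 4.36% lower). The plot of differences by family shows these values for every member.

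**Figure D1:**
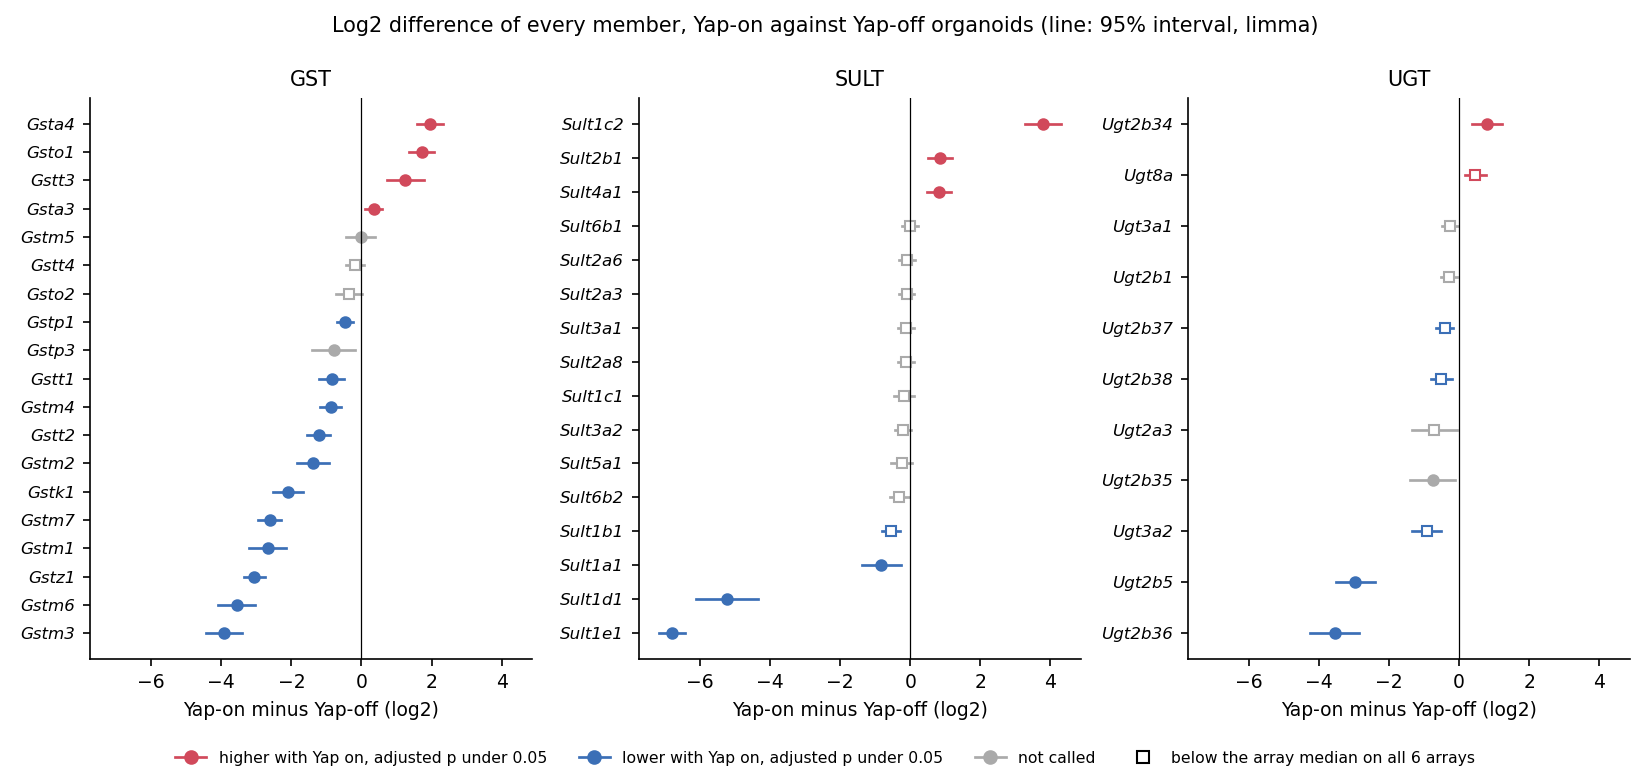
Difference of each of the 46 members between Yap-on and Yap-off organoids (log2, Yap-on minus Yap-off, horizontal axis) with its 95% confidence interval, by family, with red points for members called higher, blue for those called lower (adjusted p under 0.05), grey for those not called, and open squares for members below the array median on all 6 arrays. Sult1e1 lies farthest to the left at −6.80 and Sult1c2 farthest to the right at 3.78.

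Of the 16 sulfotransferase genes, 3 were higher and 4 lower in Yap-on organoids, where 19.1% and 12% of all genes were, so that the share of higher genes was near the background. The SULT1 subfamily held both ends of the range. Sult1e1 encodes the estrogen sulfotransferase, which inactivates estrogens. Its level was 8.84, 8.99 and 9.41 in Yap-off organoids and 2.18, 2.31 and 2.36 in Yap-on organoids, with 2.77, 2.76 and 2.52 in the hepatocyte and 2.50, 2.34 and 2.68 in the wild-type organoid libraries. The 3 Yap-off arrays stood alone and the other 9 arrays were all at the low end of the signal range. The difference was −6.80 (SE 0.16, 3 arrays a group, limma adjusted p = 5.01e-07; 6.18e-09 with all 12 arrays), and its size is limited by the background of the Yap-on arrays.

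Sult1d1, which sulfates catecholamines and other small phenols, is the neighbour of Sult1e1 on chromosome 5. Its level was 9.46, 9.66 and 9.47 in Yap-off and 4.79, 4.73 and 3.35 in Yap-on organoids, a difference of −5.24 (SE 0.37, adjusted p = 0.000102). The hepatocyte libraries had 7.56, 5.52 and 7.73 and the wild-type organoids 4.31, 5.10 and 5.27. The Yap-off arrays were above all others, hepatocytes 1 and 3 were next, and the Yap-on range overlapped that of the wild-type organoids. Sult1b1, the third SULT gene of this stretch and known for sulfating thyroid hormone, stayed at 2.54 to 3.34 on all arrays and was below every array median, although its difference of −0.56 passed the test (adjusted p = 0.010; 0.0864 with all 12 arrays).

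Sult1c2, a phenol sulfotransferase, ran the other way. Its level was 2.81, 2.64 and 2.89 in Yap-off and 6.18, 6.47 and 7.03 in Yap-on organoids, with 3.10, 3.25 and 2.98 in the hepatocyte and 2.62, 3.50 and 3.55 in the wild-type organoid libraries. Only the Yap-on arrays lay above the array medians. The difference was 3.78 (SE 0.22, adjusted p = 3.6e-05), while Sult1c1, its neighbour on chromosome 17, was between 2.79 and 3.32 on all arrays and did not pass the test (−0.18, adjusted p = 0.264).

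Sult1a1, the main phenol sulfotransferase of liver, had 9.57, 9.98 and 10.28 in Yap-off and 9.29, 9.33 and 8.75 in Yap-on organoids. The groups did not overlap, and the difference was −0.82 (SE 0.23, adjusted p = 0.035), but with all 12 arrays the adjusted p was 0.40. Sult2b1, which sulfates cholesterol and other hydroxysteroids, was 0.85 higher in Yap-on organoids (SE 0.15, adjusted p = 0.00541; 0.199 with all 12 arrays). Sult4a1, a sulfotransferase best known from brain, was 0.82 higher (SE 0.14, adjusted p = 0.00576), at 4.55, 4.41 and 4.78 against 3.63, 3.68 and 3.98. The plot of sulfotransferase levels shows that the other 9 SULT genes differed by at most 0.31 in size between these groups, and none passed the test.

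**Figure D2:**
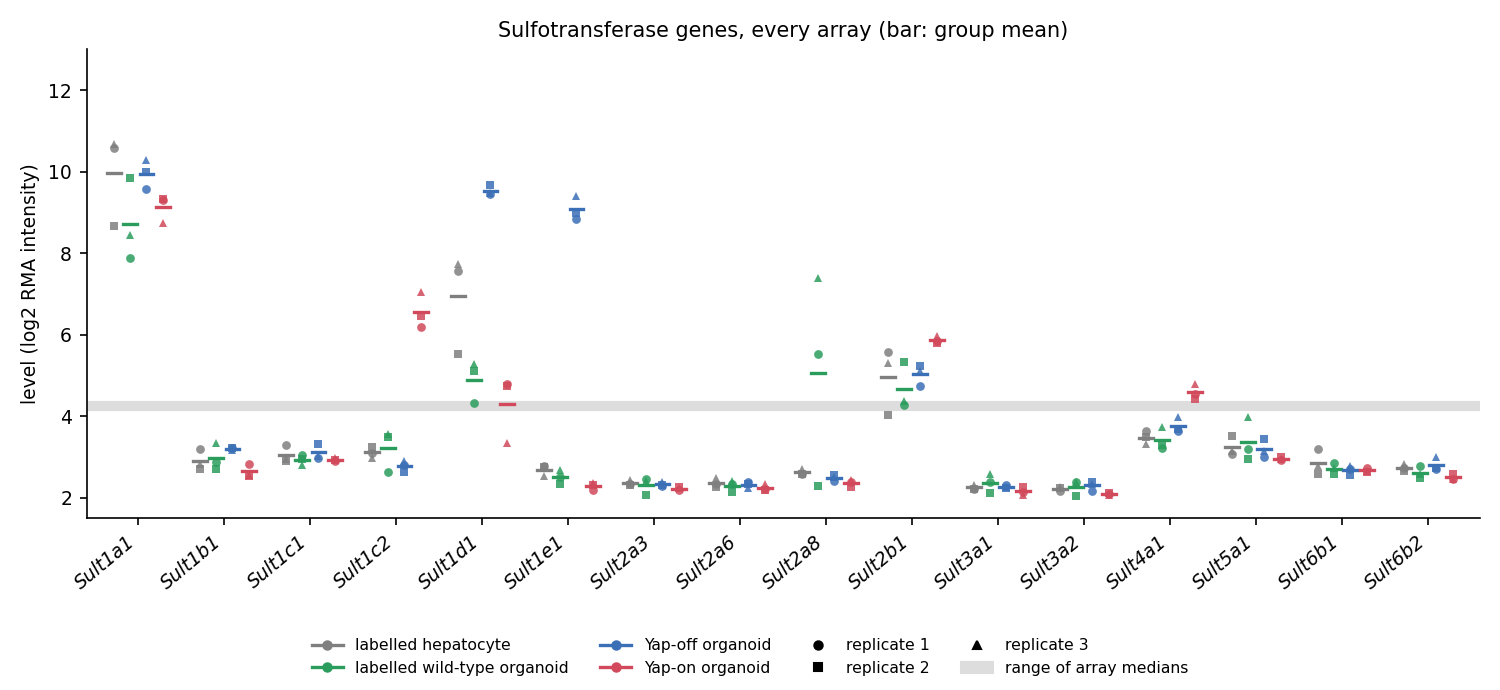
Log2 intensity (vertical axis) of each of the 16 sulfotransferase genes on the 12 arrays, with points coloured by group and shaped by replicate, bars at group means and a grey band over the range of array medians. Sult1e1 is above 8.8 on the Yap-off arrays only, Sult1c2 above 6 on the Yap-on arrays only, and most genes of the SULT2, SULT3, SULT5 and SULT6 groups stay near the bottom.

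Of the 19 glutathione S-transferase genes 15 passed, 4 higher and 11 lower in Yap-on organoids (19.1% and 12% of all genes), and 3 of the former and 8 of the latter by at least 2-fold (8.09% and 4.57%). The families were not tested against each other, and they differ in how many genes lie above the array medians. In the mu class, whose 7 genes lie side by side on chromosome 3, 6 of 7 were lower. Gstm3 had 10.03, 9.58 and 9.81 in Yap-off and 5.86, 6.28 and 5.50 in Yap-on organoids (−3.93, SE 0.22, adjusted p = 2.88e-05). Its second array row gave −4.58. Gstm6 had 7.91, 7.46 and 7.30 in Yap-off and 3.72, 3.89 and 4.39 in Yap-on organoids (−3.56, SE 0.22, adjusted p = 5.57e-05). No array of one group reached the other group in either gene.

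Gstm1, another mu enzyme, had 12.19, 12.01 and 11.98 in Yap-off and 9.23, 9.89 and 9.03 in Yap-on organoids (−2.68, SE 0.22, adjusted p = 0.000199). Gstm7 was 2.62 lower on the log2 scale (difference −2.62, adjusted p = 1.96e-05), Gstm2 was lower too (−1.38, adjusted p = 0.00235), as was Gstm4 (−0.87, adjusted p = 0.00248). Gstm5, the first gene of the row, had 8.80, 8.60 and 8.44 in Yap-off and 8.59, 8.28 and 8.89 in Yap-on organoids. Its groups overlapped, and the difference was −0.02 with a 95% confidence interval from −0.44 to 0.39 (adjusted p = 0.92). The mu genes are close in sequence, so that array rows of this class may share signal between members. With all 12 arrays Gstm2, Gstm4, Gstm6 and Gstm7 no longer passed (adjusted p = 0.404, 0.259, 0.0987 and 0.0789), while Gstm1 and Gstm3 did (0.00734 and 0.00112).

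Outside the mu class, Gstz1, the zeta enzyme that isomerises maleylacetoacetate in tyrosine breakdown, had 9.07, 9.31 and 9.05 in Yap-off and 6.10, 5.93 and 6.24 in Yap-on organoids (−3.06, SE 0.13, adjusted p = 6.57e-06). Gstk1, the kappa enzyme of mitochondria and peroxisomes, had 8.98, 8.75 and 8.83 in Yap-off and 6.37, 6.86 and 7.04 in Yap-on organoids (−2.10, SE 0.18, adjusted p = 0.000265). Both were lower on every Yap-on array than on every Yap-off array, and both passed with all 12 arrays (0.0116 and 0.00279). Gstt2 (−1.23, adjusted p = 0.000933) and Gstt1 (−0.85, adjusted p = 0.00673), of the theta class, were also lower. Gstp1, the pi enzyme, had 12.38, 12.42 and 12.41 in Yap-off and 12.02, 11.93 and 11.81 in Yap-on organoids, a small difference without overlap (−0.48, SE 0.10, adjusted p = 0.00989). Gstt1, Gstt2 and Gstp1 did not pass with all 12 arrays (adjusted p = 0.571, 0.232 and 0.459).

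The 4 GST genes that were higher in Yap-on organoids came from the alpha, omega and theta classes. Gsta4, which conjugates the lipid peroxidation product 4-hydroxynonenal, had 9.34, 9.59 and 9.0 in Yap-off and 11.32, 11.16 and 11.30 in Yap-on organoids (1.95, SE 0.16, adjusted p = 0.000192). Gsto1, which reduces dehydroascorbate and methylated arsenicals, had 8.59, 8.78 and 8.27 against 10.40, 10.22 and 10.17 (1.72, SE 0.15, adjusted p = 0.00027). Gstt3 had 5.02, 5.83 and 5.76 against 6.85, 6.69 and 6.82 (1.25, SE 0.22, adjusted p = 0.00589), the reverse of its chromosome 10 neighbours Gstt1 and Gstt2. Gsta3, whose enzyme detoxifies aflatoxin epoxide in mice, had 10.50, 10.76 and 10.63 against 10.97, 11.02 and 10.94 (0.35, SE 0.10, adjusted p = 0.042). None of these 4 passed with all 12 arrays, where the adjusted p was 0.367 for Gsta4, 0.145 for Gsto1, 0.0532 for Gstt3 and 0.846 for Gsta3. The other 3 genes outside the mu class, Gstp3 (−0.80, adjusted p = 0.0526), Gsto2 and Gstt4, did not pass on the 6 arrays either.

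**Figure D3:**
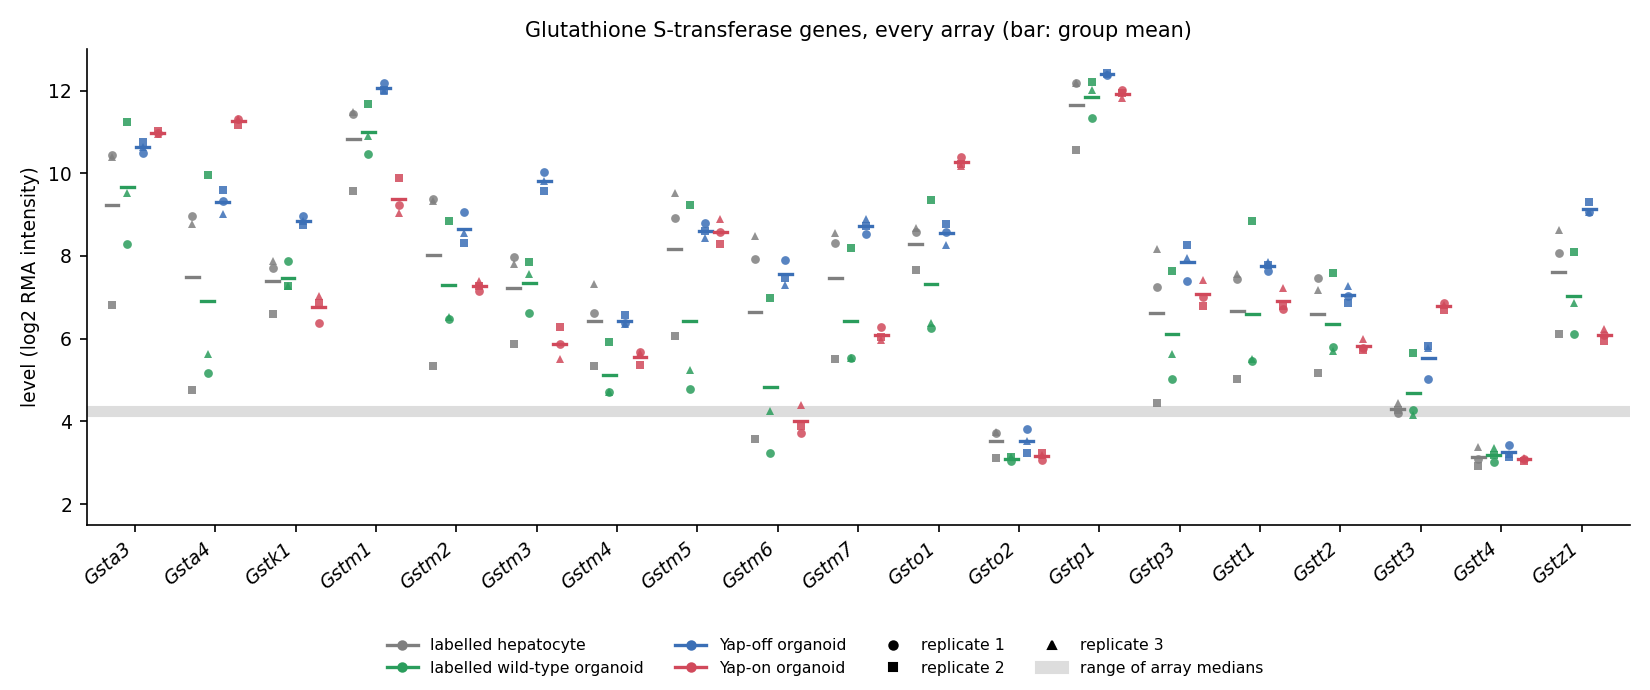
Log2 intensity (vertical axis) of each of the 19 glutathione S-transferase genes on the 12 arrays, with points coloured by group and shaped by replicate, bars at group means and a grey band over the range of array medians. Yap-off and Yap-on points are well apart for Gstm1, Gstm3, Gstm6, Gstm7, Gstk1 and Gstz1, with Yap-off above, and for Gsta4 and Gsto1, with Yap-on above, while those of Gstm5 overlap.

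Of the 11 UGT genes, 5 were lower and 2 higher in Yap-on organoids, against 12% and 19.1% of all genes, and 4 of these 7 lay below the array median on all 6 arrays. The UGT2 enzymes glucuronidate steroids, bile acids and many drugs. Ugt2b36 had 7.01, 6.81 and 5.81 in Yap-off and 2.94, 2.95 and 3.07 in Yap-on organoids (−3.55, SE 0.30, adjusted p = 0.000218). Ugt2b5 had 5.97, 6.51 and 5.61 against 3.03, 2.92 and 3.26 (−2.96, SE 0.23, adjusted p = 0.000154). In both genes the Yap-on arrays fell below the array medians and the other 9 arrays lay above them. Both passed with all 12 arrays (0.00325 and 9.69e-05).

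Ugt2b34 was the UGT gene above the median on every array, with 8.42, 8.65 and 7.97 in Yap-off and 9.02, 9.28 and 9.12 in Yap-on organoids (0.79, SE 0.18, adjusted p = 0.0174; 0.668 with all 12 arrays). The groups did not overlap, and Yap-on was the higher one. Ugt3a2 (−0.92, adjusted p = 0.00838), Ugt2b38 (−0.51, adjusted p = 0.0246), Ugt2b37 (−0.42, adjusted p = 0.0185) and Ugt8a (0.46, adjusted p = 0.0351), which makes galactosylceramide, also passed. These 4 genes and Sult1b1 lay below the median on all 6 arrays, so that their differences lie in the range where array signal is mostly background. None of the 4 passed with all 12 arrays (adjusted p = 0.459 for Ugt3a2, 0.222 for Ugt2b38, 0.255 for Ugt2b37 and 0.072 for Ugt8a). Ugt2b1, Ugt2b35, Ugt2a3 and Ugt3a1 did not pass on the 6 arrays.

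**Figure D4:**
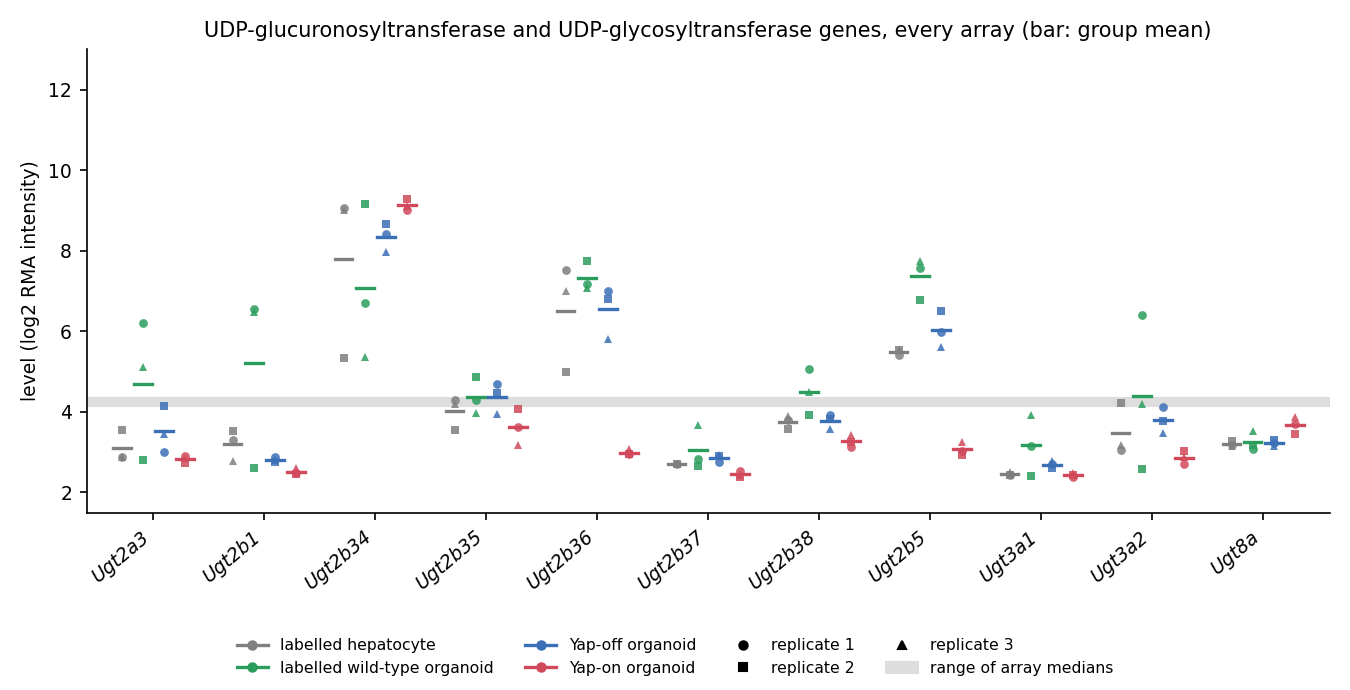
Log2 intensity (vertical axis) of each of the 11 UGT genes on the 12 arrays, with points coloured by group and shaped by replicate, bars at group means and a grey band over the range of array medians. The Yap-on points of Ugt2b36 and Ugt2b5 lie near 3, below all other points of those genes, and the points of Ugt2b34 lie above 5 on every array.

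Position did not sort the members into one direction. The RefSeq order on chromosome 5 runs from Ugt2b34 through 9 more UGT2 genes to Sult1b1, Sult1d1 and Sult1e1, which makes 13 neighbouring family members. Ugt2b34, at one end, was higher in Yap-on organoids (0.79). Ugt2b36 (−3.55) and Ugt2b5 (−2.96) inside the row, and Sult1d1 (−5.24) and Sult1e1 (−6.80) at the other end, were lower. In the chromosome 3 row, from Gstm5 to Gstm4, the 6 genes after Gstm5 were lower by 0.87 to 3.93 on the log2 scale (differences −0.87 to −3.93).

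Genes around the conjugation reactions were read from lists of cofactor supply, other conjugating enzymes, deconjugation and export, and regulators. Over all genes 19.1% were higher and 12% lower in Yap-on organoids, which is the background for each list. Of 14 cofactor genes, 3 were higher, a share near that background, and 4 were lower, and the list's median difference was 0.08 against −0.08 over all genes. The higher ones were the subunits of the enzyme that limits glutathione synthesis, Gclc (1.47, adjusted p = 0.00449) and Gclm (1.03, adjusted p = 0.00246), and Bpnt1 (1.33, adjusted p = 0.00479), which removes the by-product of sulfation. The lower ones were Cth (−4.01, adjusted p = 0.000157) and Cbs (−3.90, adjusted p = 0.000196), which make cysteine from homocysteine, the sulfate transporter gene Slc26a1 (−2.84, adjusted p = 0.000404) and Ugp2 (−1.79, adjusted p = 0.000131), which makes UDP-glucose. Gclc and Gclm thus lay on the opposite side from the cysteine supply genes Cth and Cbs.

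Of 14 other conjugating enzymes, 2 were higher and 9 lower (19.1% and 12% of all genes), with a median of −1.82. Nnmt, which methylates nicotinamide (−3.66, adjusted p = 0.000285), Acsm1, which activates medium-chain acids (−3.53, adjusted p = 0.000997), Tpmt, which methylates thiopurines (−2.64, adjusted p = 2.01e-05), and Baat, which joins bile acids to amino acids (−2.51, adjusted p = 0.000362), had the largest differences. Of 10 genes of deconjugation, mercapturate formation and export, 2 were higher and 5 lower (median −0.36). Abcc2, the pump that carries glucuronides and glutathione conjugates into bile, had 9.94, 9.49 and 9.72 in Yap-off and 3.40, 3.27 and 3.07 in Yap-on organoids (−6.47, adjusted p = 4.81e-07). Abcc1, a pump of the basolateral side, was 1.45 higher in Yap-on organoids (adjusted p = 0.000105) and Abcg2 was lower (−1.36, adjusted p = 0.00407). Of 14 regulators of xenobiotic metabolism, 1 was higher and 8 lower (median −0.43). Hnf4a, 0.98 lower on the log2 scale (difference −0.98, adjusted p = 0.000781), stands in this list and among the hepatocyte markers. Ppara (−2.33, adjusted p = 4.61e-06), Rxra (−1.90, adjusted p = 0.000102) and Nr1i3, which encodes the receptor CAR (−1.74, adjusted p = 0.00118), had the largest differences, and Nfe2l2, which encodes NRF2, was the 1 that was higher (0.51, adjusted p = 0.0198).

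Markers of cell types moved with these differences. All 8 hepatocyte markers were lower in Yap-on organoids, and their summed intensity ranged from 2884 to 3152 on the Yap-on and from 22614 to 28010 on the Yap-off arrays. Of 5 biliary markers measured, 4 were higher and 0 lower (the remaining 1 did not pass), with sums of 7154 to 8207 against 604 to 940. The 4 included Cftr, which lay below the array median on all 6 arrays. Of 5 stellate cell markers 3 were lower (57.2 to 58.7 against 310 to 347). These were Reln (−4.34), Dcn (−2.20) and Des, which lay below the array median on all 6 arrays, while Lrat and Col1a1 did not pass. Of 7 macrophage markers 1 was higher and 1 lower (162 to 182 against 137 to 203), of 4 T and B cell markers 2 were lower, and of 6 endothelial markers none passed. The 6 endothelial markers and the 4 T and B cell markers were not above the array median on all 3 arrays of either group. The part of cell type in the differences of the members was not tested, and in bulk RNA fewer cells of a type and less RNA per cell cannot be told apart.

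Sex-linked genes also moved with the groups. Xist, expressed from the inactive X chromosome, was at 9.20, 8.49 and 8.98 in Yap-off and at 3.14, 3.15 and 3.20 in Yap-on organoids, and the Y-linked gene Eif2s3y was 4.65 higher in Yap-on organoids (adjusted p = 1.24e-06). Sex and Yap state cannot be told apart in this comparison. All 3 wild-type organoid libraries had low Xist (3.14 to 3.30) and Eif2s3y at 6.19 to 7.11, so sex and group cannot be told apart between Yap-off and wild-type organoids either. Hepatocytes 1 and 3 had Xist at 8.82 and 9.0 and hepatocyte 2 had it at 3.00, so that once hepatocyte 2 is left out, sex also differs between hepatocytes and the Yap-on or wild-type organoids. Among the members, Sult1d1 was at 7.56 and 7.73 in hepatocytes 1 and 3 and at 9.46 to 9.66 in Yap-off organoids, the 5 libraries with high Xist, and at 5.52 or less on the 7 with low Xist. Sult1e1 was at 2.77 and 2.52 in hepatocytes 1 and 3 and at 8.84 to 9.41 in Yap-off organoids, against 2.18 to 2.76 on the 7 with low Xist.

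The never-induced groups were compared next, to ask how far each Yap state lay from cells in which Yap had not been induced. Because a library may be under the wrong label within these groups, the induced arrays were first set against all 6 never-induced arrays, which does not depend on which of the 2 labels is right. All 3 Yap-off arrays lay above all 6 in 7 members (4.51% of all genes): Sult1e1, Sult1d1, Gstm1, Gstm3, Gstk1, Gstz1 and Gstp1. In 0 members did they lie below all 6 (3.64% of all genes). All 3 Yap-on arrays lay above all 6 in 6 members (9.05% of all genes), namely Sult1c2, Gsta4, Gsto1, Gstt3, Sult2b1 and Sult4a1, and below all 6 in 5 members (7.17% of all genes), namely Ugt2b36, Ugt2b5, Ugt2b1, Ugt2b37 and Ugt2b38. The highest Yap-on array minus the lowest never-induced array was −1.92 for Ugt2b36 and −2.16 for Ugt2b5, but −0.0038 for Ugt2b1, −0.13 for Ugt2b37 and −0.16 for Ugt2b38, whose Yap-on levels lay below the array medians. The gaps above all 6 were narrow too for Gstp1 (0.18) and Sult2b1 (0.22) and widest for Sult1e1 (6.07). Against the 4 never-induced arrays left without hepatocyte 2 and wild-type organoid 2, a choice made after seeing the data, Yap-off arrays lay above in 11 members (9.2% of all genes) and below in 1 (7.09%), and Yap-on arrays above in 7 (18.2%) and below in 16 (20.3%).

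With hepatocytes as labelled, 1 member passed in Yap-off organoids (0.717% of all genes passed, 0.482% as higher), Sult1e1, which was 6.40 higher (SE 0.18, adjusted p = 0.00154). Without hepatocyte 2, 6 members passed (9.26% of all genes, 3.36% as higher), all higher in Yap-off organoids: Sult1e1 (6.44, adjusted p = 0.000176), Sult1d1 (1.88, adjusted p = 0.00195), Gstk1 (1.06, adjusted p = 0.00948), Gstm1, Gstm3 and Gstt3. In Yap-on organoids 6 members differed from the labelled hepatocytes, 4 of them higher and 2 lower (8.82% of all genes, 6.28% higher and 2.54% lower). Sult1c2 (3.45, SE 0.24, adjusted p = 0.00122), Gstt3 (2.48, SE 0.10, adjusted p = 0.000244), Gsto1 (1.97, SE 0.29, adjusted p = 0.0164) and Sult4a1 (1.10, SE 0.14, adjusted p = 0.010) were higher. Ugt2b36 (−3.51, SE 0.66, adjusted p = 0.0334) and Ugt2b5 (−2.42, SE 0.12, adjusted p = 0.000367) were lower. Without hepatocyte 2 these differences were 3.52 for Sult1c2, 2.47 for Gstt3, 1.64 for Gsto1, 1.11 for Sult4a1, −4.27 for Ugt2b36 and −2.40 for Ugt2b5, and all 6 passed (adjusted p at most 0.00193). The count was then 25, with 8 higher and 17 lower (32.4% of all genes, 17.8% higher and 14.7% lower). Sult1d1 then also passed, with a difference of −3.36 (adjusted p = 0.00127). These comparisons share their hepatocyte arrays. Hepatocyte 2 had summed intensities of 17491 for the 7 macrophage and 2832 for the 6 endothelial markers, hepatocytes 1 and 3 had 323 to 449 and 63.2 to 66.8, and the Yap organoids had 137 to 203 and 49.9 to 61.6. Hepatocytes 1 and 3, the libraries left without hepatocyte 2, had the biliary marker Krt19 at 10.21 and 9.82. Their hepatocyte marker Cyp2e1 was at 3.16 and 3.22. Hepatocyte 2 had Krt19 at 4.95 and Cyp2e1 at 10.14. The part of all these markers in the members' differences was not tested.

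Against wild-type organoids as labelled, 2 members passed in Yap-off organoids (0.306% of all genes passed, 0.246% as higher), Sult1e1 (6.57 higher, SE 0.20, adjusted p = 0.00143) and Sult1d1 (4.63 higher, SE 0.28, adjusted p = 0.00729). In Yap-on organoids 4 passed (3.51% of all genes, 2.45% higher and 1.06% lower): Sult1c2 (3.34, SE 0.34, adjusted p = 0.00751) and Sult4a1 (1.17, SE 0.19, adjusted p = 0.0339) were higher, and Ugt2b36 (−4.34, SE 0.21, adjusted p = 0.000477) and Ugt2b5 (−4.30, SE 0.28, adjusted p = 0.00140) were lower. Without wild-type organoid 2 the differences were 6.49 for Sult1e1 and 4.74 for Sult1d1 in Yap-off organoids, and 3.47 for Sult1c2, 1.11 for Sult4a1, −4.13 for Ugt2b36 and −4.59 for Ugt2b5 in Yap-on organoids, and all of them passed (adjusted p at most 0.00562). The wild-type libraries disagreed among themselves on the GST genes. Gsta4, for example, had 5.16, 9.96 and 5.63. Without wild-type organoid 2, 26 members passed in Yap-off organoids, 21 higher and 5 lower (23.3% of all genes, 13% higher and 10.3% lower). In Yap-on organoids 26 passed as well, 15 higher and 11 lower (42% of all genes, 25.9% higher and 16.1% lower). Gstm5, which did not differ between the Yap states, was then 3.6 higher in Yap-off (adjusted p = 0.000127) and 3.58 higher in Yap-on organoids (adjusted p = 8.91e-05). Markers of other cell types moved with the counts without wild-type organoid 2. Wild-type organoids 1 and 3 had summed intensities of 8468.5 and 5302 for the 6 endothelial markers, 646 and 384 for the 4 T and B cell markers and 9052 and 15054 for the 7 macrophage markers. In the Yap organoids these sums were 49.9 to 61.6, 27.7 to 36.0 and 137 to 203, and in wild-type organoid 2 they were 51.1, 28.2 and 224. Their part in the members' differences was not tested.

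Between wild-type organoids and hepatocytes as labelled, 0 members and 0 of all genes (0%) passed in limma, while 2 members (Sult1d1 and Ugt2b5) and 3.67% of all genes had an unadjusted p under 0.05. With a spread shared over all 12 arrays 0 members and 10 genes (0.0502%) passed. Without hepatocyte 2 and wild-type organoid 2, 24 members passed, 6 higher and 18 lower in wild-type organoids (24.8% of all genes, 9.69% higher and 15.1% lower), among them Gstm6 (−4.46, adjusted p = 0.00130) and Sult1a1 (−2.47, adjusted p = 0.00170). The hepatocyte libraries then left had Krt19 at 10.21 and 9.82 and Cyp2e1 at 3.16 and 3.22. The wild-type organoids left had Krt19 at 4.28 and 4.92 and Cyp2e1 at 10.03 and 9.90. Directions here follow the labels, which may be wrong, and would be reversed if the labels of these libraries were exchanged.

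The medians over all GST genes and over the mu class show the same arrangement by library. The median over the 19 GST genes was 8.59, 8.60 and 8.44 in Yap-off and 6.71, 6.78 and 7.04 in Yap-on organoids, and 7.97, 5.34 and 8.49 in the hepatocyte and 5.52, 8.09 and 5.64 in the wild-type organoid libraries. Over the 7 mu genes it was 8.80, 8.60 and 8.56 in Yap-off, 6.27, 6.28 and 5.97 in Yap-on, 8.31, 5.52 and 8.55 in hepatocyte and 5.52, 8.19 and 5.54 in wild-type organoid libraries. Hepatocytes 1 and 3 and wild-type organoid 2 were thus near the Yap-off organoids in these medians, and the other never-induced libraries lay below the Yap-on organoids. Other classes ran otherwise. The UGT2 median was 6.38, 4.38 and 5.23 in the wild-type organoid and 4.05, 3.57 and 4.04 in the hepatocyte libraries. The SULT1 median was between 2.96 and 3.44 on all never-induced arrays. In the alpha class Yap-on organoids (11.09 to 11.14) lay above Yap-off organoids (9.82 to 10.17).

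**Figure D5:**
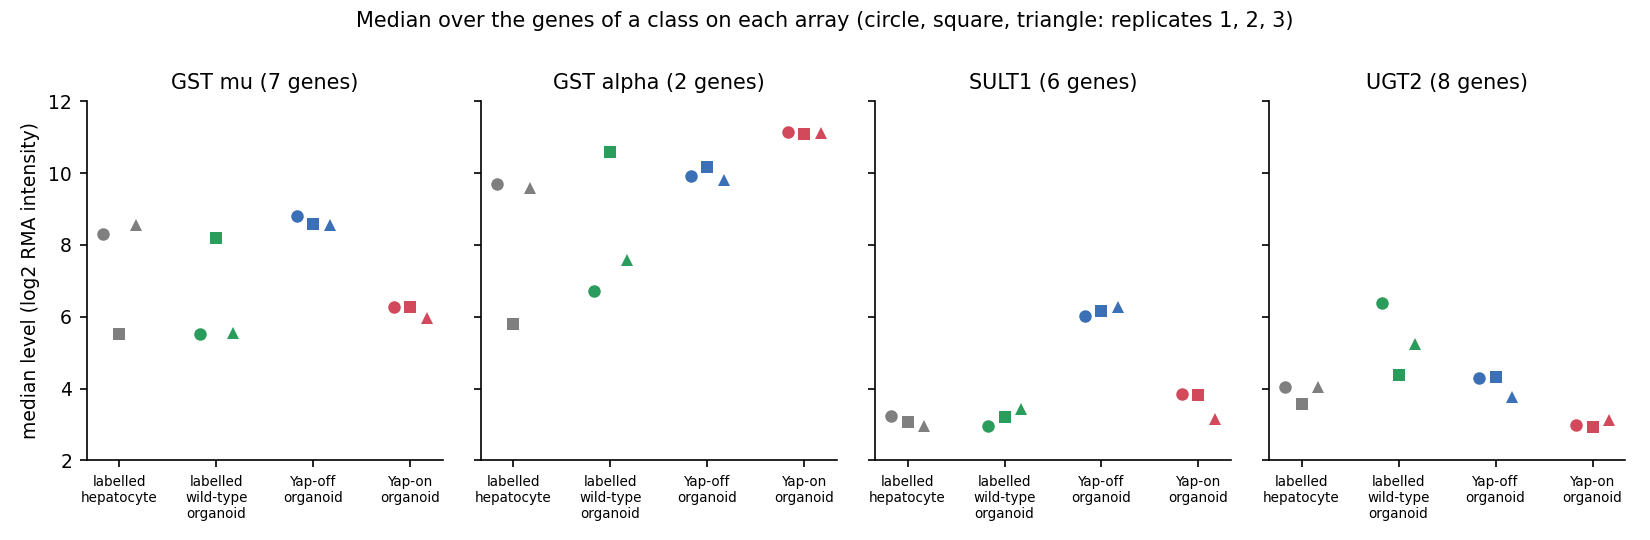
Median log2 intensity (vertical axis) over the members of the GST mu, GST alpha, SULT1 and UGT2 classes on the 12 arrays. Points for arrays are coloured by group. For the mu class the Yap-off arrays sit between 8.56 and 8.80 and the Yap-on arrays between 5.97 and 6.28, while the hepatocyte arrays lie at 5.52, 8.31 and 8.55 and the wild-type organoid arrays at 5.52, 5.54 and 8.19.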

How the data were processed

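Array values were deposited as intensities made by the authors with RMA, which subtracts background, quantile-normalizes and summarizes probes, per the submitters' processing notes; no version is given. RMA gives log2 values, whereas the deposited values are linear (array medians 13.6 to 15.6), so log2 of the deposited intensity was taken here. RNA was amplified with the Nugen Pico WT kit, per the labels. The genome build behind the annotation was not given in these sources.

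Of 34760 rows, 22961 stood in the probe annotation, 1321 named several genes and were left out, and 21640 named 1 gene; 11799 were not in it. Where a gene had several rows (954 genes), its row of highest mean stood for it, which left 19937 genes. RefSeq matching of 21553 rows changed 0 symbols. Each comparison was fitted on its own 6 arrays with limma 3.58.1 (R 4.3.3, lmFit and eBayes, no filter), with Benjamini-Hochberg adjustment over all genes and adjusted p under 0.05 as the threshold. The fit was tested on simulated data. A permutation test of 3 against 3 arrays cannot go below p = 0.10 and was not used. Alternatives were another quantile normalization, median centring, other row choices, a filter on the lowest 30% of genes, all 12 arrays, a robust trended fit, a replicate block and leaving out arrays. No filter was applied to the members: all 46 were tested. The number of arrays limits the precision.

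Members, gene lists and rules were chosen with earlier results of these data known. Named were Sult1e1 and Sult1d1, up to 10 called members each way in Yap-on against Yap-off and up to 5 in the others, the 6 with the highest mean, and up to 4 genes of each list with the largest difference. Genes named beyond this, such as Nfe2l2 and members that did not pass, were chosen after their values were seen. Python 3.11.15 with pandas 2.3.3 made the tables.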

Additional observations from a re-analysis of the deposited data

Results flagged for a closer look

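Rows that name several genes were used in no comparison. Of the 10 such rows that name genes of these families, 3 gave a signal in Yap-off organoids above every never-induced array. Over all genes, each with a row of its own, 4.51% did so. In the row that names 8 symbols of the UGT1A locus the lowest Yap-off array was at 6.21, against a highest never-induced level of 6.0. In the rows shared by Gstp1 and Gstp2 the lowest Yap-off levels were 11.16 and 11.32, against 11.12 and 11.13. The row of Gstp1 alone also lay above every never-induced array, so these shared rows are no separate result. The differences are small, and which gene of a row gives the signal cannot be told apart.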

How the results depend on the processing

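None of the 21 members named by the rule above changed sign in Yap-on against Yap-off organoids under the alternatives run. Signs of the other members, and signs in the other comparisons, were not checked. Counts were compared by size only. In Yap-on organoids against hepatocytes most members that passed were higher as labelled, and most were lower without the doubtful libraries. In Yap-on against Yap-off organoids the 29 members became 10 with all 12 arrays, and 24 to 29 when 1 array was left out. In Yap-off organoids against hepatocytes the 1 member became 2 with the most variable row or all 12 arrays, 6 without the doubtful libraries, and 1 to 6 (without hepatocyte 2) with 1 array left out. In Yap-on organoids against hepatocytes the 6 became 25 without the doubtful libraries and 3 (without Yap-on 1) to 25 (without hepatocyte 2) with 1 array left out. In Yap-off against wild-type organoids the 2 became 4 with all 12 arrays, 26 without the doubtful libraries and 1 (without any 1 Yap-off array) to 26 (without wild-type organoid 2) with 1 array left out. In Yap-on against wild-type organoids the 4 became 7 with all 12 arrays, 26 without the doubtful libraries and 2 (without Yap-on 2) to 26 (without wild-type organoid 2) with 1 array left out. In wild-type organoids against hepatocytes the 0 became 24 without the doubtful libraries and 0 to 2 (without wild-type organoid 2) with 1 array left out. The all-gene counts moved too: 6212 to 2283 with all 12 arrays for Yap-on against Yap-off, and without the doubtful libraries 143 to 1846, 1759 to 6468, 61 to 4639, 699 to 8378 and 0 to 4947 for the other 5 in the order above. The cause was not tested, except that all 12 arrays bring in the wider spread of the never-induced groups. With a replicate block the counts were 25, 0, 3, 0 and 3 for the first 5 comparisons. The labels do not say whether same-numbered arrays share more than a number. Their deviations from the group mean correlated at 0.07, 0.03 and −0.06 between Yap-on and Yap-off organoids. Between wild-type organoids and hepatocytes they correlated at −0.51, −0.71 and −0.66. Such correlations cannot exclude a shared origin. Of 21 named members, 10 passed under all 15 alternatives in Yap-on against Yap-off organoids. A fit of 10 arrays without the doubtful libraries, chosen after seeing the data, called 25 members there. The counts of this fit, of the replicate block and with 1 array left out are given here without the share of all genes. They therefore show only how the number of members moved. No depth is given, and levels below the array median carry little signal over background.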

Other observations

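Some members were high in the wild-type organoid libraries 1 and 3 and near background elsewhere; they were chosen after their values were seen. Sult2a8, which sulfates bile acids, was at 5.52 and 7.40 in these libraries and at most 2.71 on the other 10 arrays. Ugt2b1 was at 6.55 and 6.47 there and at most 3.51 on the other arrays. Ugt2a3 was at 6.20 and 5.10 there and at most 4.15 elsewhere. Hepatocyte 2, which shared the high Lyz2 level of these libraries, was at 2.58, 3.51 and 3.56 for the 3 genes, so the libraries that resembled each other across all genes differed here.

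The 3 rows shared by Gsta1, Gsta2 and 2 predicted genes were between 8.01 and 10.64 in hepatocytes 1 and 3, wild-type organoid 2 and all Yap-off and Yap-on organoids, and between 2.25 and 5.44 in hepatocyte 2 and wild-type organoids 1 and 3. Which of the 4 genes gives this signal cannot be told apart.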
